A study of Arabidopsis thaliana with 10 samples.

Results

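The measurements described here are the transcript ratios of Arabidopsis thaliana plants that had spent 8 h in light favouring photosystem II (PSII light) after acclimation to light favouring photosystem I (PSI light). They form 1 of the 10 columns of the deposited value table and were identified by the title of that column. The plants were of the accession Col-0 and grew on soil in white light for 21 days, in short days (8 h light, 16 h dark). They then received PSI light for 3 days, and a reference harvest was taken before they were moved to PSII light. The groups used here are, besides 8 h of PSII light, its time points at 30 min, 2 h and 48 h, plants after 8 h of the opposite shift from PSII light to PSI light, and plants kept in white light. Samples were pools of at least 250 to 500 plants, and 3 experiments per time point were combined by the authors into 1 ratio per spot, so no spread between experiments can be given and nothing below was tested. The way in which they were combined is not stated. The source labels speak of thylakoid membranes while the protocols describe total RNA from leaf material. Ratios hold no levels, so the tissue could not be checked against marker genes. In such bulk samples fewer cells of a type and less RNA per cell cannot be told apart.

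The array carried 3262 spots with a deposited ratio, and 645 of these were paired with exactly 1 gene, which gave 644 genes. At 8 h of PSII light 635 of these genes had a ratio above 0. All values are log2 ratios minus the median log2 ratio of their column, so that 1 means 2 times the column median and -1 means 0.5 times. A gene at 2-fold or more from the column median is called higher or lower. Whether the ratio is the light condition over the reference plants is likely from the sample descriptions and the harvest plan, but it is not stated, and the titles could be read the other way. If the ratio runs from reference to light condition, each "higher" and "lower" turns round.

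Photosystem II and photosystem I work in series in the thylakoid membrane of the chloroplast, joined by the plastoquinone pool and the cytochrome b6f complex. PSII light drives electrons into the plastoquinone pool faster than photosystem I removes them and so reduces it, while PSI light oxidises it. The redox state of this pool governs the distribution of light-harvesting complexes between the photosystems and is known to act on the transcription of chloroplast and nuclear genes for photosynthesis.

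Few genes were far from the median after 8 h of PSII light. Over all 3261 features (spots, with the pair of spots of AT2G25870 averaged), 3145 had a value, of which 68 were 2-fold or more above the column median (2.16%) and 60 were 2-fold or more below it (1.91%). The central 50% of features spanned 0.42 log2 units at 8 h, against 0.59, 0.66 and 0.93 at the 30 min, 2 h and 48 h time points and 0.83 in the white light column. Among all 10 columns only 2 h of PSI light, with 0.37, was narrower by this measure. The 8 h ratios also had a median of 1.16 as deposited, the only time point of the shift to PSII light with a median above 1. On the deposited scale 115 features were 2-fold or more above 1 (3.66%) and 35 were 2-fold or more below it (1.11%). Of the 635 genes, 10 were higher and 8 were lower after centring, shares of 1.57% and 1.26% that lay under those of all features.

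**Figure D1:**
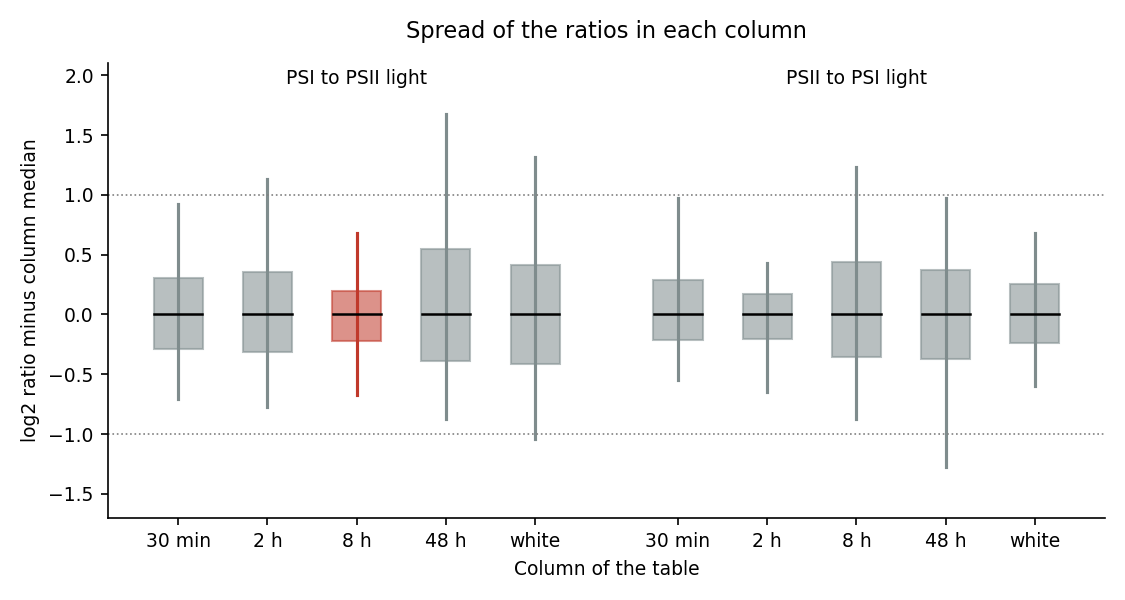
Spread of log2 ratios minus the column median (vertical axis) in each of the 10 columns (horizontal axis), with boxes from the 25th to the 75th percentile, vertical lines from the 5th to the 95th percentile, and black bars at the median. The box of 8 h of PSII light, in red, spans 0.42 log2 units, against 0.66 at 2 h and 0.93 at 48 h of the same shift, and dotted lines mark 2-fold.

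The highest genes were led by AT1G51350, with a deposited ratio of 3.64, or 3.14 times the column median. Its values were 2.51, 2.85, 1.65 and 3.50 from 30 min to 48 h and 2.62 in white light, so 8 h was the lowest of its time points although it was the highest gene there, and this order also held as deposited and after quantile normalization. AT4G38040 followed with 1.42 at 8 h, beside 1.01 at 30 min, 1.81 after 2 h and 1.69 after 48 h. The third was AT-HF, also called HISN4, which encodes a plastid enzyme of histidine synthesis and lay at 2.44 times the median. From 30 min to 48 h AT-HF had values of 0.69, 1.68, 1.29 and 1.71, and 0.93 in white light, so it was above the median in each of these columns. The columns of a shift share their reference plants. For any gene described here, lying on the same side of the median in several of them is therefore not independent agreement.

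XERICO, a RING-type protein whose overexpression raises abscisic acid in Arabidopsis, was at 2.43 times the median. Its 4 time points read 1.65, 1.82, 1.28 and 2.60. The low at 8 h was not kept on other scales, since XERICO was lowest at 30 min as deposited and at 2 h after quantile normalization. NTRC, the chloroplast thioredoxin reductase that uses NADPH, was at 2.22 times the median. Over the 4 times its values were 0.67, 1.69, 1.15 and 2.03, and white light gave 2.25. GH9B11, a glycosyl hydrolase of the family that holds the plant cellulases, was at 2.07 times the median, with 0.67, 0.86, 1.05 and 0.89. Its value at 8 h exceeded those at 30 min, 2 h and 48 h on all 3 scales tried, the centred, the deposited and the quantile-normalized one, the last of which gives all columns the same distribution. Among the 10 higher genes 1 was highest at 8 h on the centred scale, 2 on the deposited scale and 5 after quantile normalization. The remaining 4 of the 10 carry only an identifier in the gene tables and had values from 1.06 to 1.26 at 8 h, namely AT4G39690, AT2G46300, AT3G52070 and AT2G31800. Just outside the 2-fold limit lay AT2G18920 with 0.98, AT1G22700 with 0.96 and DI21, named for its induction by drought, with 0.95, and just inside it lay NTRC, AT2G31800 and GH9B11.

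The lowest gene was AT3G09080, with a deposited ratio of 0.302, or 0.26 times the column median. It was below the median in all columns of the shift, with -0.87, -1.51, -1.94 and -0.97 from 30 min to 48 h and -1.43 in white light. AT5G27860 was at 0.318 times the median, with values of -0.95, -0.54, -1.65 and 0.36 over the 4 times. AT3G08000 had -1.48 at 8 h and was listed at 0 in the other 4 columns of the shift, so its value stands alone. LHB1B2, described with the photosystems below, and AT4G31930 followed with -1.38 and -1.37. AT4G31930 had values of -1.40, -1.20, -1.37 and -1.65 and -2.05 in white light, with little movement between the time points on the centred scale. Its deposited ratios were 0.322, 0.407, 0.450 and 0.187 from 30 min to 48 h.

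Also lower were AT3G26630 with -1.32, AT1G07460 with -1.31 and ATSIK. AT3G26630 had -0.17, -0.96, -1.32 and 0.41 over the 4 times, below the median until 8 h and above it afterwards. ATSIK sat on the 2-fold limit itself, at 0.5 times the median, with -0.79, -1.05 and -0.25 at the other times. Outside the limit lay AT4G05070 with -0.97, AT4G13550 with -0.96 and FATB with -0.86. FATB encodes a plastid thioesterase that releases saturated fatty acids from their carrier protein, and its 4 values were -0.33, -0.55, -0.86 and -0.11. AT1G25500, with -0.86, completed the 12 lowest genes.

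**Figure D2:**
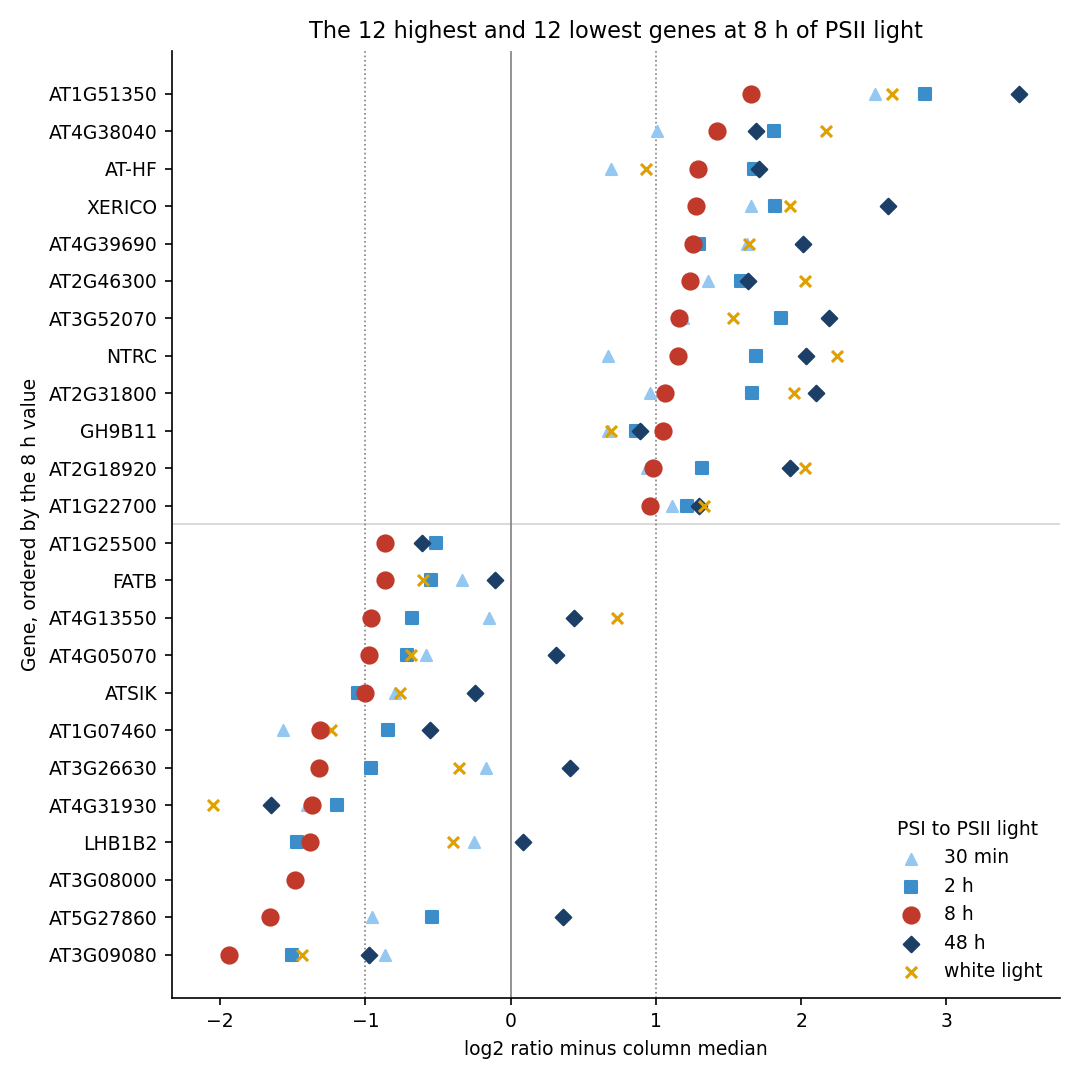
Log2 ratio minus the column median (horizontal axis) for the 12 highest and the 12 lowest genes at 8 h of PSII light (vertical axis), with a red circle for 8 h and other markers for 30 min, 2 h, 48 h and white light. On this scale 11 of the 12 upper genes have their 8 h value left of their 2 h and 48 h values, against 4 as deposited and 1 after quantile normalization, and LHB1B2 and AT3G26630 lie at 0.08 and 0.41 at 48 h.

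Subunits of the photosystems lay below the median at 8 h. All 5 measured members of the list of photosystem and light-harvesting proteins were below it, with a median of -0.54 against 0.00 over all features. Only LHB1B2 passed 2-fold, which makes 1 of 5 beside 1.91% of all features. LHB1B2, also called LHCB1.5, encodes a chlorophyll-binding protein of the main antenna of photosystem II. Its values over time were -0.25, -1.47, -1.38 and 0.08, so it was low at 2 h and 8 h and near the median before and after. The LHCB1 genes are close copies of each other, and a probe of this kind may also bind transcripts of its relatives.

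PSB27, a lumenal protein that assists the assembly and repair of photosystem II, had values of -0.37, -0.38, -0.61 and 0.46 from 30 min to 48 h. PSAN, a lumenal subunit of photosystem I near the docking site of plastocyanin, had -0.08, -0.96, -0.54 and 0.94 over the same times. PSBW, a small membrane subunit of photosystem II, read 0.04, 0.11, -0.43 and 1.19. For PSBY, another small subunit of photosystem II, the values were 0.05, 0.24, -0.17 and 1.41. All 5 genes were thus below the median at 8 h and above it at 48 h. As deposited, PSB27 was lowest at 30 min and not at 8 h, and LHB1B2 and PSB27 were below 1 at 48 h as well, at -0.68 and -0.30 on the log2 scale. On the deposited scale the 8 h values were -1.17 for LHB1B2, -0.39 for PSB27, -0.33 for PSAN, -0.21 for PSBW and 0.04 for PSBY, so PSBY lay above 1 on that scale. LPA19, a PSB27-related protein that takes part in maturation of the D1 protein of photosystem II, was outside the list and lay at 0.18 at 8 h and 0.66 at 48 h.

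On the centred scale the step from 8 h to 48 h of PSII light was 2-fold or more for each of these 5 subunits, and on the deposited scale it was for none of them. The difference of 48 h minus 8 h does not contain the reference plants, because they divide out, and was 1.62 for PSBW, 1.58 for PSBY, 1.48 for PSAN, 1.46 for LHB1B2 and 1.07 for PSB27. Over all features 12.4% had such a step upward and 2.51% downward. Without centring the steps were 0.64 for PSBW, 0.60 for PSBY, 0.50 for PSAN, 0.49 for LHB1B2 and 0.09 for PSB27, while the median step of all features was -0.91. The 48 h column is much wider than the 8 h column, and after quantile normalization the steps were 1.24 for PSBW, 1.07 for PSBY, 1.21 for PSAN, 1.61 for LHB1B2 and 1.00 for PSB27. The share of all features with an upward step of 2-fold was then 4.28%. These genes were put on the list with earlier results of the same data known, so the count describes them and is no independent evidence.

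None of the 5 genes for the building of thylakoids was 1.5-fold or more from the median at 8 h, beside 6.52% of all features above and 6.93% below. With so few genes this says little about the group. FZL, a dynamin-like protein of thylakoid and envelope membranes, had 1.09, 0.96, 0.07 and 1.47 in order of time, so that 8 h was its lowest time point, as it was on the deposited and the quantile-normalized scale. PAC (PALE CRESS), needed for chloroplast development, was at 0.34, and SPPA, a light-induced thylakoid protease, was at 0.08. ATAB2, an RNA-binding activator of translation of photosystem proteins, had -0.11 at 8 h after -0.52 and -0.77 at the earlier times. SECE1, a subunit of the thylakoid Sec translocase, was at -0.26.

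The measured genes of pigment synthesis were all within 1.5-fold of the median at 8 h. Of all features 6.52% were 1.5-fold or more above it and 6.93% below, so with 5 genes this says little. HEMA3 encodes a glutamyl-tRNA reductase, the enzyme at the entry of tetrapyrrole synthesis, and had 0.18, 0.82, 0.40 and 1.16 from 30 min to 48 h. The geranylgeranyl reductase gene AT1G74470, which supplies the phytol tail of chlorophyll, gave 0.66, 0.57, 0.05 and 1.41 in the same order. Like FZL it was lowest at 8 h on all 3 scales. CHLM, the methyltransferase of magnesium protoporphyrin, was at -0.26, SIRB, the ferrochelatase of sirohaem synthesis, at 0.29, and the carotenoid isomerase Z-ISO at -0.08.

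**Figure D3:**
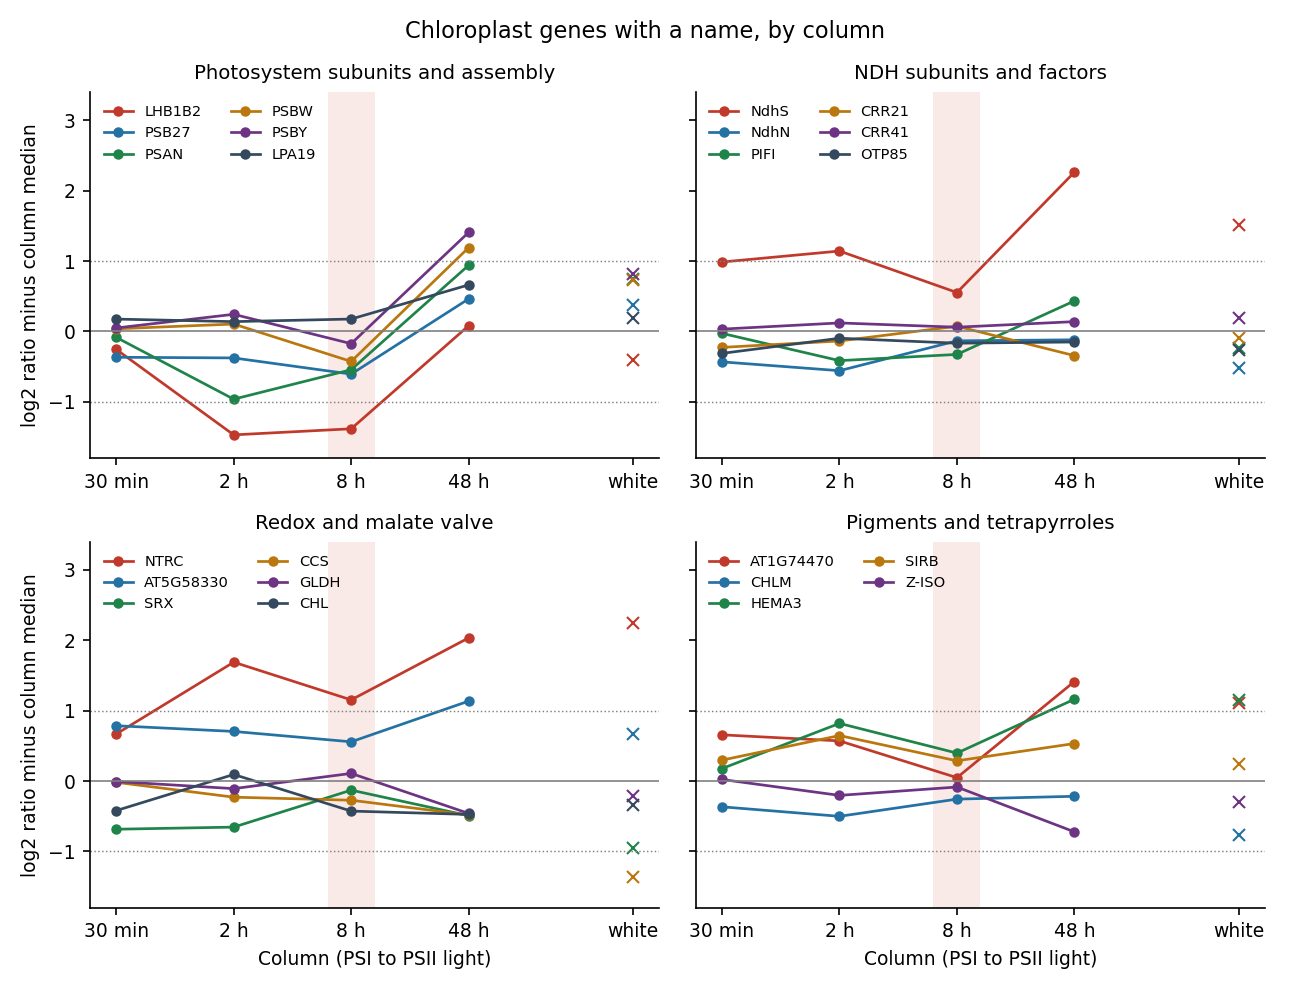
Log2 ratio minus the column median (vertical axis) at 30 min, 2 h, 8 h and 48 h of PSII light and in white light (horizontal axis) for named chloroplast-related genes in 4 panels, with lines joining the time points, crosses for white light and shading at 8 h. The photosystem genes other than LPA19 lie below 0 at 8 h and above 0 at 48 h, where PSBY reaches 1.41 and LHB1B2 0.08.

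Carbon metabolism showed no gene past 2-fold at 8 h among 6, beside 4.07% of all features. SBPASE, the sedoheptulose-bisphosphatase of the Calvin-Benson cycle, was at 0.11 following -0.28 and -0.92 at the earlier times, a step of 1.03 from 2 h to 8 h, and it was listed at 0 at 48 h. PRK, the phosphoribulokinase of the same cycle, was at -0.09 and ATSPS4F, a sucrose-phosphate synthase, at -0.10. PPDK, the pyruvate orthophosphate dikinase, was at -0.11. LrgB, the plastid envelope carrier of glycolate and glycerate, was at 0.41 with 0.21, 0.51 and 0.41 at the other 3 times. The highest in this group was the NADP-dependent malate dehydrogenase gene AT5G58330 with 0.56. That enzyme exports reducing power from the chloroplast as malate and is switched on by thioredoxin, and its gene lay between 0.56 and 1.14 at all time points. The value at 8 h was the lowest of the 4 on the centred scale and the highest of the 4 on the other 2 scales.

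Of the 6 genes for redox control and detoxification only NTRC was past 2-fold at 8 h, beside 4.07% of all features. NTRC reduces 2-Cys peroxiredoxin and also acts on enzymes of chlorophyll synthesis. SRX, the sulfiredoxin that repairs over-oxidised peroxiredoxin, had -0.68, -0.65, -0.13 and -0.49, so it was nearest to the median at 8 h. CCS, the copper chaperone of superoxide dismutase, was at -0.27 at 8 h and at -1.36 in white light. GLDH, the mitochondrial enzyme of the last step of ascorbate synthesis, was at 0.11. The chloroplastic lipocalin CHL, which protects thylakoid lipids under oxidative stress, was at -0.43 and GLX2-1, a glyoxalase, at -0.62. Among these 6 genes 2 were above the median and 4 below it.

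The chloroplast NDH complex, which returns electrons from ferredoxin to plastoquinone, was represented by 3 genes of the fixed list. None of the 3 passed 2-fold at 8 h, beside 4.07% of all features. NdhS, the subunit that binds ferredoxin, showed 0.99, 1.14, 0.55 and 2.26 from 30 min to 48 h. NdhN, another subunit, was at -0.13 at 8 h, and PIFI, a stromal protein linked to NDH activity, was at -0.33. NdhS was thus above the median at all 4 times and the other 2 genes were below it at 30 min, 2 h and 8 h. The step of NdhS from 8 h to 48 h was 1.71, and 0.67 after quantile normalization.

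Factors of organelle RNA metabolism and NDH assembly were outside that list. CRR21 and OTP85, pentatricopeptide proteins that edit the plastid ndhD transcript, lay at 0.07 and -0.17 at 8 h, and CRR41, an assembly factor of NDH, lay at 0.06. OTP70, which has a part in plastid intron splicing, was higher with 0.58, 1.01, 0.54 and 0.92 over the 4 times. The mTERF9 gene AT5G55580, for a chloroplast protein of the mitochondrial transcription termination factor family, had 1.11, 1.38, 0.69 and 1.68. Both of these genes were lowest at 8 h on the centred scale, whereas after quantile normalization both were lowest at 48 h, and as deposited OTP70 was lowest at 48 h and AT5G55580 at 30 min.

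Other metabolic genes spread to both sides of the median. Besides AT-HF, LpxA had 0.54, the ATP sulfurylase gene APS4 had 0.47 and the uracil phosphoribosyltransferase gene UPP had 0.41 at 8 h. CBL, the cystathionine beta-lyase of methionine synthesis, was at -0.70 after 0.12 at 30 min, and was listed at 0 at 2 h. Both measured genes of the amino acid synthesis list were therefore far apart, AT-HF at 1.29 and CBL at -0.70. CYN, the cyanase, was at -0.52 at 8 h although it was at 0.53, 0.06 and 0.27 at the other times. THIC, an enzyme of thiamine synthesis, was at 0.27 and ETFQO, the mitochondrial electron-transfer flavoprotein:ubiquinone oxidoreductase, at 0.30, while CUTA lay at 0.05 and UGT74D1 at -0.06.

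Cell wall genes of the GH9B family lay on both sides of the median. GH9B11 was at 1.05, GH9B16 at 0.38, GH9B12 at -0.06 and GH9B8 at -0.71 at 8 h, and CSLA01, a cellulose synthase-like gene, was at -0.42. At 48 h GH9B16 had -1.60 and GH9B11 had 0.89. GH9B8 had -0.07, 0.06, -0.71 and -0.97 from 30 min to 48 h, so it was low at the later times only.

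Both genes of the drought and abscisic acid list, XERICO and DI21, were above the median at 8 h. XERICO alone passed 2-fold, beside 2.16% of all features that were 2-fold or more above the median. DI21 had 1.44, 1.89, 0.95 and 2.26 from 30 min to 48 h and 2.28 in white light, and as deposited its 8 h ratio was 2.24. GLR2.7, a glutamate receptor-like channel, had -0.01, 0.86, 0.81 and 0.70 over the 4 times. Of the calcium sensors, CML30 was at 0.37 at 8 h against 0.90 at 2 h and 1.39 at 48 h, and CML41 was at -0.14. AILP1 and MAMI, whose name records induction by mannitol, were among the lowest named genes with -0.67 and -0.68 at 8 h. AILP1 had -0.63, -0.66, -0.67 and -0.29, nearly the same value at the 3 early times on the centred scale.

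The other signalling genes lay closer to the median. RALFL32, a peptide of the RALF type, was at -0.37, the SWAP70 gene at -0.46, the chloroplast casein kinase gene AT2G23070 at -0.22, IQD22 and iqd32 at -0.17 and -0.04, and the salt-induced gene SIS at 0.08. CCL (CCR-LIKE) had 0.41, 0.27, -0.08 and 1.72 over the 4 times, a step of 1.80 between 8 h and 48 h.

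None of the 21 genes for nuclear processes and development passed 2-fold at 8 h, beside 4.07% of all features. With so few genes this says little about the group. The lowest was FBL17, an F-box protein that promotes cell division by removing inhibitors of cyclin-dependent kinases, with -0.70, and the highest was the chromatin remodeller chr31 with 0.73. The values of chr31 over time were 0.74, -0.51, 0.73 and -0.01. DRT101 had -0.88, -1.17, -0.20 and -1.40, and was nearest to the median at 8 h. DRT100 was at 0.26 at 8 h and at -0.85 at 48 h. The MADS-box genes AGL103, AGL54 and AGL26 were at 0.31, 0.09 and -0.25, the DNA demethylase gene DME was at 0.12 and TCP15 at -0.26. The median of the 21 genes was -0.03. In the mixed group of membrane, folding and remaining genes, TPP2, tripeptidyl peptidase II, was lowest with -0.82 at 8 h after 0.10 at 30 min and -1.18 at 2 h, and DAL1 was highest with 0.57. The plastid chaperonin genes Cpn60beta4 and Cpn60beta3 were at 0.07 and -0.13.

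**Figure D4:**
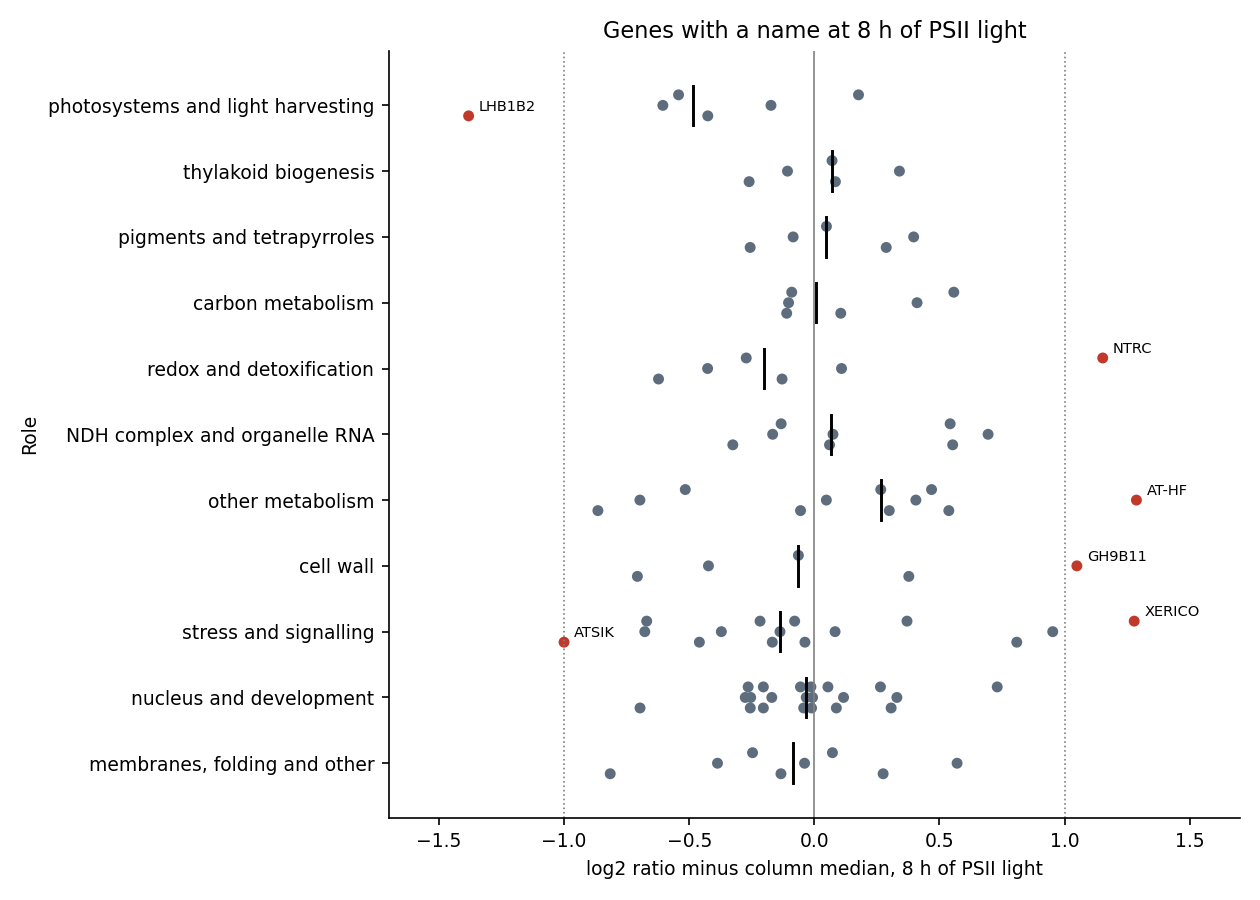
Centred log2 ratio after 8 h of PSII light (horizontal axis) of the 96 genes with a value and a name in the gene tables, 1 point per gene, in 11 roles (vertical axis), with black bars at the median of each role and red points past 2-fold. The photosystem role has its median at -0.48, and the 6 labelled points, such as NTRC at 1.15 and LHB1B2 at -1.38, are the named genes past 2-fold.

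Names were available for 98 of the 644 genes, and 96 of these had a value at 8 h. Past 2-fold were 4 above the median (AT-HF, XERICO, NTRC and GH9B11) and 2 below it (LHB1B2 and ATSIK), and the other 90 lay within 2-fold. The 539 genes with only an identifier held 6 above and 6 below. The shares above and below were 4.17% and 2.08% of the named genes and 1.11% each of the others. Over all features they were 2.16% and 1.91%. At 1.5-fold, 36 of all 635 genes were above and 43 below, beside 6.52% and 6.93% of all features.

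The 8 h values were next set against their neighbours in time, using differences between columns in which the shared reference drops out. From 2 h to 8 h, a step upward of at least 2-fold was counted for 23 features (0.743%) and a step downward for 36 (1.16%). Of the genes, 7 were higher and 3 lower. As deposited, 15 genes were higher and 1 was lower, beside 2.2% and 0.42% of all features. Among the 7 were AT3G03890 with 2.30 and AT1G01080 with 2.28, which were singled out after their values were seen, and the named genes chr31 with 1.24 and SBPASE with 1.03. The other 3 were AT1G18290 with 1.15, and AT4G31210 and AT3G26730 with 1.10 each. The 3 lower were AT3G09850 with -1.41, AT1G51350 with -1.20 and AT5G27860 with -1.12. After quantile normalization (background 1.13% higher and 1.16% lower) the difference was -0.21 for AT1G51350, -1.45 for AT3G09850 and -1.25 for AT5G27860.

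From 8 h to 48 h, 2-fold steps were more numerous, and their direction depended on centring, since the log2 column median was -0.77 at 48 h and 0.21 at 8 h. On the centred scale 12 of 92 named genes with both values were 2-fold or more higher at 48 h and 3 were lower. The shares of all features on that scale were 12.4% and 2.51%, so these counts were near the background. As deposited none of the 92 was higher by 2-fold and 35 were lower, beside 0.234% and 44.4% of all features. The 12 were the 5 photosystem genes, NdhS, AT1G74470, FZL, CCL, CML30, XERICO and DI21, and the 3 were GH9B16 with -1.97, DRT101 with -1.19 and DRT100 with -1.11. After quantile normalization (background 4.28% higher and 2.81% lower) 6 were higher, the 5 photosystem genes and CCL, and 4 were lower, the same 3 and chr31 with -1.08. The step of XERICO was then 0.11 and that of NTRC -0.26.

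Deviations at 8 h from the median of the other 3 time points turned their balance with the scale. On the centred scale 75 features deviated downward by at least 2-fold (2.54%) and 7 upward (0.237%), and of 588 genes with a value at all 4 times 6 were lower and 1 was higher. As deposited 5 features deviated downward (0.17%) and 139 upward (4.71%), with 1 gene lower and 27 higher. Quantile normalization gave 75 features downward (2.54%) and 19 upward (0.644%), with 4 genes each way. AT3G09850 had the largest downward deviation among the genes, -1.71 centred and -1.10 as deposited, with 1.09, 0.79, -0.61 and 1.16 from 30 min to 48 h, so it was above the median at all times except 8 h. AT1G51350, AT3G26630, LHB1B2 and AT5G27860 followed with deviations from -1.20 to -1.12. After quantile normalization these were -0.36 for AT1G51350, -1.27 for AT3G26630, -1.29 for LHB1B2 and -1.25 for AT5G27860, and as deposited these 4 genes lay between -0.87 and -0.49. The sixth gene was FZL with -1.02. Upward, AT1G18290 led with 1.11 (values of -1.29, -1.34, -0.19 and -0.30), followed by DRT101, AT4G22650, AT5G06010 and AT5G55220 with deviations from 0.96 to 0.89. AT5G55220 lay at 0.33 at 8 h and below the median at the other 3 times.

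At 8 h of the opposite shift the values were nearly uncorrelated with those in PSII light across all features. Features past 2-fold in PSII light, in either direction, were 2-fold or more above in PSI light more often than all features. This excess was not tested. These plants moved from PSII light to PSI light and have a reference of their own. Over 3047 features with both values, Pearson's r between the 8 h columns of both shifts was 0.0485 across features and Spearman's rho was 0.029. Both columns come from the same array design, and features are not independent replicates. The features at least 2-fold above their column median numbered 66 in PSII light and 237 in PSI light, and 24 were shared, which is 36.4% of the first set and 10.1% of the second. Of 54 features below in PSII light, 12 were 2-fold or more above in PSI light, 22.2% of the 54 and 5.06% of the 237. The background of 8 h of PSI light was 7.86% above and 3.61% below the median. Under the reversed sharing, 2 of the 66 were below in PSI light, and 1 feature was below in both.

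Among genes, AT1G51350 was above the median in both, with 1.65 in PSII light and 1.21 in PSI light, and so was AT3G52070 with 1.16 in PSII light and 1.23 in PSI light. AT5G27860 lay on opposite sides, with -1.65 in PSII light and 1.66 in PSI light, and AT4G38040 did so in the other sense with 1.42 in PSII light and -1.08 in PSI light. LHB1B2 was at -1.38 in PSII light and 0.22 in PSI light, PSBW at -0.43 in PSII light and 0.89 in PSI light, and PSBY at -0.17 in PSII light and 0.84 in PSI light. PSAN and PSB27 were below the median in both, PSAN with -0.54 in PSII light and -0.31 in PSI light, PSB27 with -0.61 in PSII light and -0.16 in PSI light. FATB had -0.86 in PSII light and 1.00 in PSI light, and TPP2 had -0.82 in PSII light and 0.96 in PSI light. SBPASE was at 0.11 in PSII light and -1.55 in PSI light.

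**Figure D5:**
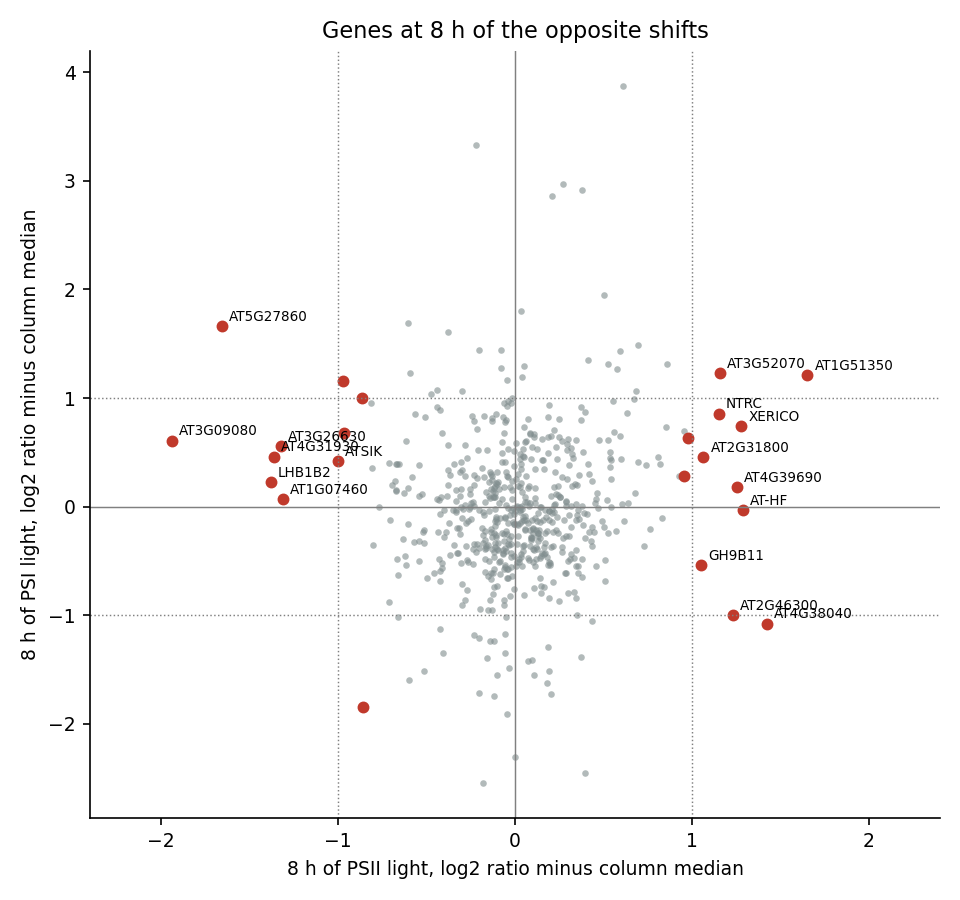
Log2 ratio minus the column median of each gene at 8 h of PSII light (horizontal axis) and at 8 h of PSI light (vertical axis), 1 point per gene, with the 12 highest and 12 lowest genes of PSII light in red and labels on those past 2-fold there. Red points lie on both sides of 0 on the vertical axis, such as AT5G27860 at -1.65 and 1.66 and AT4G38040 at 1.42 and -1.08, and dotted lines mark 2-fold.

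A ratio of exactly 0 at 8 h was listed for 116 spots, 34 of which were at 0 in all columns. Only 3 spots were at 0 at 8 h alone. Of the genes, 9 had no value at 8 h. AT2G27680, AT4G01810 and AT5G38360 were at 0 in all 10 columns. CKS, the enzyme that activates the sugar Kdo, and SEH1H, a nucleoporin, were listed at 0 in all 5 columns of the shift, as were AT1G12230, AT5G19210 and AT5G56070. AT1G50000 had values at 30 min and 2 h and in white light but none at 8 h or 48 h. In the other direction, 35 genes with a value at 8 h were at 0 at 48 h.

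Spots not paired with exactly 1 gene were more often far from the median. Past 2-fold were 4.49% of the 801 spots with several genes and 4.33% of the 1709 with none that had a value, against 2.83% of those with 1 gene and 4.07% of all features. The largest ratios of the column belonged to such spots, at 4.53 times the median for a spot with several genes and 0.199 times for a spot with none. Spots that share their annotation say little about the precision. The 2 spots of AT2G25870 had -0.07 and 0.48 at 8 h and were on opposite sides of the median in all 5 columns of the shift. Over 75 pairs of spots annotated with the same gene or genes, which can carry different sequences, the median absolute difference at 8 h was 0.41 and 70 pairs were within 1. Apart from AT2G25870 these were spots with several genes. All features at 8 h spanned only 0.42 from the lower to the upper quartile, so most pairs of any spots would lie within 1. Pairs of unrelated spots were not compared, so closer values within the annotated pairs are not shown.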

How the data were processed

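RNA was measured on nylon filters with radioactively labelled cDNA, per the labels' protocols, and 3 experiments per time point were made. The authors deposited linear ratios, 1 per spot and condition. Scaling, background correction and the ratio's direction: not given in the sources used here. An exact 0 was treated as missing. The log2 of the deposited ratio was taken and the column median over spots subtracted. With 1 column per condition no test was run. Precision is limited by the number of arrays, with signal over background unknown.

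Genes were named only for spots with exactly 1 gene in the platform annotation, updated through gene identifiers to the TAIR10.1 gene table, which held 643 of the 645 spots. Of 16 gene lists matched by words in names or by identifiers, 10 had a measured member. Lists of protein kinases and phosphatases, pentatricopeptide, ribosomal and mitochondrial proteins, transporters and ubiquitin, RING and F-box proteins matched none, since the tables hold few descriptions. The other lists are incomplete for the same reason, and that of transcription factors missed genes such as AGL103, AGL54, AGL26 and TCP15. Short symbols were also matched as whole words only, so the NDH list missed CRR21 and CRR41. The transcription factor list held 1 gene (AT4G03090, nodulin homeobox, 0.33 at 8 h), the list of oxidoreductases 5 with a median of 0.30, the list of chaperones and proteases 3 with a median of -0.27, the antioxidant list 3 with a median of -0.13, the NDH list 3 with a median of -0.13, the amino acid list 2 with a median of 0.30, the drought list 2 with a median of 1.12, the tetrapyrrole list 2 with a median of -0.10 and the Calvin-Benson list 2 with a median of 0.01. The members and lists were chosen with earlier results of these data known. The rule for named genes took the 12 highest and 12 lowest at 8 h, the 5 highest and 5 lowest by 8 h minus the median of the other time points, up to 3 members of each list and the 3 genes on either side of each 2-fold limit, 48 genes in all. All other genes, and the grouping into 11 roles, were chosen after their values were seen. The gene tables gave no sequence, hence no sequences are printed, and coordinates are not printed either.

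Alternatives were values as deposited, centring on single-gene spots, quantile normalization, a pseudocount of 0.432 (the 5th percentile of positive ratios), features measured in each of the 10 columns, spots kept separate, the 8 h ratio inverted and thresholds of 1.5-fold and 3-fold. The steps were tested on simulated data. Python 3.11.15, pandas 2.3.3 and numpy 2.4.6 were used.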

Additional observations from a re-analysis of the deposited data

How the results depend on the processing

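The 68 features above and 60 below the median at 8 h became 115 and 35 as deposited, and 34 and 128 with the pseudocount, which counts spots at 0 as low. Quantile normalization gave 159 above, and its 90 below was within 1.5 times. Both counts follow from giving all columns the same distribution, so they do not test the counts of the 8 h column. A threshold of 1.5-fold gave 205 and 218, and 3-fold gave 13 and 17. Pearson's r with 8 h of PSI light was 0.0601 after quantile normalization and 0.227 with the pseudocount, where spots at 0 in both columns enter. It was -0.0485 with the 8 h ratio inverted. That change of sign is fixed by turning 1 column alone, and turning both columns would leave r as it was. The photosystem list's median became 0.54 with that inversion and kept its sign under the other alternatives run, from -0.66 to -0.33. Of 118 genes named or carrying a name, 5 changed their 2-fold call as deposited, 8 after quantile normalization, 12 with the pseudocount and 1 (ATSIK, -0.996) when centred on single-gene spots. As deposited, 27 changed side of 1.

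Inverting the 8 h ratio turns all signs: AT-HF -1.29, AT1G51350 -1.65, AT2G31800 -1.06, AT2G46300 -1.23, AT3G52070 -1.16, AT4G38040 -1.42, AT4G39690 -1.26, GH9B11 -1.05, NTRC -1.15, XERICO -1.28 and the drought list's median -1.12, with AT1G07460 1.31, AT3G08000 1.48, AT3G09080 1.94, AT3G26630 1.32, AT4G31930 1.37, AT5G27860 1.65, ATSIK 1.00 and LHB1B2 1.38. These turned signs follow from the inversion itself and test nothing. Differences between times depended most on the scale. The counts of features higher and lower by 2-fold became 68 and 13 as deposited for 8 h minus 2 h (23 and 36 centred), 7 and 1328 for 48 h minus 8 h (372 and 75) and 139 and 5 for 8 h minus the median of the other times (7 and 75). Quantile normalization gave 35, 128 and 19 higher for these comparisons, and the pseudocount gave 46, 123 and 34 higher and, for the third, 27 lower. Features with values in all columns gave 8 higher for 8 h minus 2 h. Of 113 genes, 51 changed the sign of 48 h minus 8 h as deposited and 27 after quantile normalization, such as AT4G38040 (0.27 centred, -0.90 after it) and AT-HF (0.42 and -0.70). Among those past 2-fold, AT2G31800 and AT3G52070 became -0.0585 and -0.11 after quantile normalization. Inversion was not run for differences between times, where turning 1 column leaves no such difference. Leaving out a time point moved the deviation of LHB1B2 at 8 h to -0.52 without 48 h and -0.69 without 30 min, and that of AT1G18290 to 0.61 without 2 h and 0.63 without 30 min. No paired analysis was possible because each condition has 1 column and no replicate numbers.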
